A study of Bos taurus with 8 samples.

Results

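Granulosa cells of Holstein heifers at 11 months of age were compared with those of the same heifers at 14 months, an interval around puberty in this breed, on 4 dual-colour arrays in which both ages were hybridised together. The 4 arrays are those whose labels give 11 against 14 months, out of 8 in the series, and the other 4 set 8 against 14 months. Each array is 1 heifer, so the replicate is the animal and n is 4. Cy5 labelled the 11-month RNA of heifers 1 and 2, Cy3 that of heifers 3 and 4, and every deposited ratio was turned to read 11 over 14 months.

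At both ages the heifers received progesterone (CIDR), the dominant follicle was aspirated 36 h before hormones, and 6 injections of 30 mg FSH followed at 12 h intervals. Cells came from follicles punctured with a needle through the vaginal wall 43 h after the last FSH, and their pooled RNA was amplified linearly before labelling. The labels give in vitro as the sample type. The labels name granulosa cells, whereas the series' own design text describes embryos at the blastocyst stage, which was not settled, and the labels were followed here. Of the defining granulosa genes, INHA (inhibin alpha), AMH (anti-Müllerian hormone), FSHR (the FSH receptor) and CYP19A1 (aromatase) were above background in 4 of 4 heifers at both ages, while FOXL2, a transcription factor of granulosa cells, was above it in 1 of 4 at each age. The oocyte genes GDF9 and BMP15 were above background in 0 of 4 at both ages, as was the endothelial gene PECAM1. Other members of the oocyte and endothelial lists differed. MOS and H1-8, from the oocyte list, and ROBO4, from the endothelial list, were above background in 4 of 4 at both ages. Of 17 listed oocyte genes 5 were kept, and of 14 endothelial genes 6. The leukocyte gene PTPRC and the epithelial keratin KRT8 were above background in 4 of 4. In such bulk RNA, fewer cells of a type and less RNA per cell cannot be told apart.

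Granulosa cells surround the oocyte, multiply under FSH as the follicle grows, and make oestradiol from androgens through aromatase. After the LH surge they leave the cell cycle, turn to progesterone synthesis and remodel their matrix. Cyclins, kinetochore proteins and spindle motors, which are made mainly in the last phases of a cell cycle, are commonly read as a sign of how many cells divide.

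The 4 arrays had median probe intensities from 255 to 329 per channel, against 194 to 297 for the mean of the negative control spots, and between 43.3% and 57.3% of probes were above background. Of the probes on the array 22692 were kept, which named 10206 genes, each given by its brightest kept probe. A value for a heifer is the deposited log2 ratio, positive where the gene was higher at 11 months, and 0.585 on this scale is 1.5-fold. Precision is limited by having 4 arrays.

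The heifers differed in how far their ratios spread. The SD of the log2 ratios over kept probes was 0.53 in heifer 1, 0.86 in heifer 2, 0.39 in heifer 3 and 0.68 in heifer 4. In heifer 2, 1252 genes were more than 2-fold lower at 11 months and 469 more than 2-fold higher, whereas in heifer 3 only 70 were lower and 110 higher. Heifers 1 and 4 leaned the other way, with 406 higher against 195 lower and 758 higher against 546 lower. Ratios of heifers that shared a dye orientation correlated over probes at 0.33 (heifers 1 and 2) and 0.16 (heifers 3 and 4), and those that did not at -0.17 to 0.13, as a description over probes of the same arrays.

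**Figure D1:**
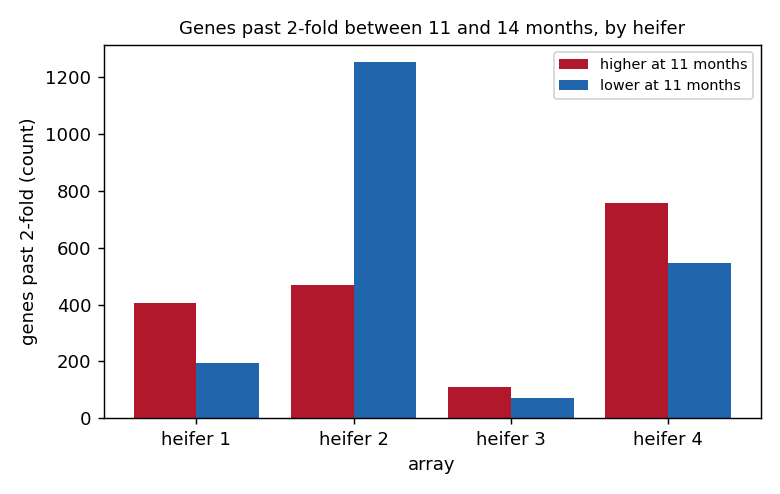
Number of genes (vertical axis, count, from 0) past 2-fold higher (red bars) or lower (blue bars) at 11 than at 14 months on each heifer's array (horizontal axis). Heifer 2 has 1252 genes lower and 469 higher, and heifer 3 has 70 lower and 110 higher.

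No gene passed the test between 11 and 14 months. In limma's fit over all 8 arrays, with terms for both ages and the dye and the heifer as a random block, 0 of 22692 probes had a Benjamini-Hochberg adjusted p under 0.05, which is 0% of probes. The lowest adjusted p was 0.679. Without adjustment 1636 probes had p under 0.05, 7.21% of those tested, 727 of them higher (3.2%) and 909 lower (4.01%) at 11 months. The values that follow are therefore descriptions of 4 animals, and "higher" or "lower" gives the side of a ratio, not a change that passed a test. Of the 10206 genes, 740 were higher at 11 months in all 4 heifers (7.25%) and 651 were lower in all 4 (6.38%).

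The steadiest differences were few. Across all genes 17 were past 1.5-fold in the same direction in every heifer, which is 0.167% of genes, 12 of them higher (0.118%) and 5 lower (0.049%) at 11 months. The 12 higher genes were ARHGAP1, C4BPA, CPEB3, FOXA2, GPC1, JPH1, NBEA, PIM2, SEMA3E, SFPQ, THBS1 and TXNIP, and the 5 lower ones FCGR3A, NAIP, PDK1, SDS and SPDL1. At the edge of the threshold, the smallest ratio in any heifer was 0.59 for SFPQ and 0.60 for NBEA inside it, and -0.56 for PHGDH, PEX26 and AKAP6 outside it. Counted over 3 heifers, with 1 left out in turn, 64, 50, 133 and 42 genes were past 1.5-fold. From the scanner's mean intensities in place of the deposited ratios 7 genes were past it, 6 of them among the 17.

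Of the 12 higher genes 2 encode RNA-binding proteins. SFPQ, a splicing factor of nuclear paraspeckles, had log2 ratios of 0.99, 1.02, 0.86 and 0.59 in heifers 1 to 4, with a mean of 0.87 ± 0.20 (SD, n = 4). CPEB3, which binds polyadenylation elements in messenger RNA and controls their translation, gave 1.98, 0.94, 0.73 and 1.48, with a mean of 1.28 ± 0.56 (SD, n = 4). Both genes were higher in every heifer, SFPQ with little spread and CPEB3 most in heifers 1 and 4. Both had an adjusted p of 0.679 in limma's fit. They belong to a list of 29 measured RNA-binding and splicing genes that they entered with their values known from earlier results, and whose median was -0.025. Of the 29, 13 had a fitted change above 0 and 16 below it, against 49.7% and 50.3% of all genes. HNRNPA1, another splicing factor, had ratios of 0.30, 0.28, 0.36 and 0.78, higher in every heifer. HNRNPK, a nuclear protein that binds pyrimidine-rich RNA, had ratios of -1.35, -2.56, 0.22 and -0.42, and it was lowest in heifer 2 and slightly higher in heifer 3.

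THBS1, thrombospondin, a matrix protein that inhibits the growth of vessels, had ratios of 1.95, 1.65, 0.98 and 0.90, with a mean of 1.37 ± 0.51 (SD, n = 4). C4BPA, the alpha chain of an inhibitor of complement, had 0.74, 1.0, 1.79 and 2.01, with a mean of 1.38 ± 0.61 (SD, n = 4). THBS1 was highest in heifers 1 and 2 and C4BPA in heifers 3 and 4, which is also the split of the dyes. GPC1, a heparan sulphate proteoglycan of the cell surface, stood at 0.76, 0.80, 0.67 and 0.65, with a mean of 0.72 ± 0.07 (SD, n = 4). The 4 heifers lay close together, but limma's fit over all 8 arrays gave GPC1 an SE of 0.43 and an unadjusted p of 0.133. SEMA3E, a secreted ligand of plexin receptors, had 1.18, 0.91, 1.06 and 2.16. It was above background in 4 of 4 heifers at 11 months and not well above it in any at 14 months, so that its ratios rest on dim 14-month signals.

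TXNIP, which binds thioredoxin and restrains glucose uptake, had ratios of 1.02, 0.87, 0.79 and 1.12, with a mean of 0.95 ± 0.15 (SD, n = 4), and its other probes gave fitted changes of only 0.06 to 0.47. PIM2, a kinase that favours cell survival, had 1.52, 0.83, 0.79 and 1.46, and JPH1, a junctophilin that ties membranes together, had 0.64, 2.35, 1.15 and 0.63. Both were above background at 14 months in only 2 of 4 heifers, so that part of their ratios rests on dim 14-month signals. NBEA, neurobeachin, a protein of membrane traffic, had 1.05, 1.06, 0.60 and 0.60, higher in heifers 1 and 2 than in heifers 3 and 4. This is also the split of the dyes. FOXA2, a forkhead factor of endodermal and glandular epithelia, had 2.82, 0.72, 1.03 and 3.85, and the ratios of heifers 1 and 4 were far above those of the other two. It was above background at 14 months in 3 of 4 heifers, and its fitted change without heifer 4 was 1.24.

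Among the 5 lower genes 2 belong to white blood cells or innate immunity. FCGR3A, an Fc receptor of natural killer cells and macrophages, had ratios of -2.09, -1.99, -1.27 and -0.65, with a mean of -1.50 ± 0.67 (SD, n = 4), and its other probes gave -1.13 to -0.74. NAIP, a sensor of bacterial proteins, had -1.18, -2.81, -0.86 and -0.68. Both were lower in every heifer and least so in heifer 4. PDK1, a kinase that closes the entry of pyruvate into mitochondria, had -0.61, -2.65, -0.76 and -0.63, and its second probe gave a fitted change of 0.04, so that its probes disagree. SDS, serine dehydratase, had -0.84, -1.71, -0.96 and -0.92, and heifer 2 was the lowest for both enzymes. Without heifer 2 the fitted change was -0.52 for PDK1, -0.62 for SDS and -0.83 for NAIP. That fit keeps the dye term, so its values are not means of the heifers left. The ratios of those heifers were -0.76 to -0.61 for PDK1 and -0.96 to -0.84 for SDS, all farther from 0 than the fitted change. SPDL1, an adaptor that brings dynein to kinetochores, had -1.06, -0.97, -0.61 and -1.32, with a mean of -0.99 ± 0.29 (SD, n = 4).

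**Figure D2:**
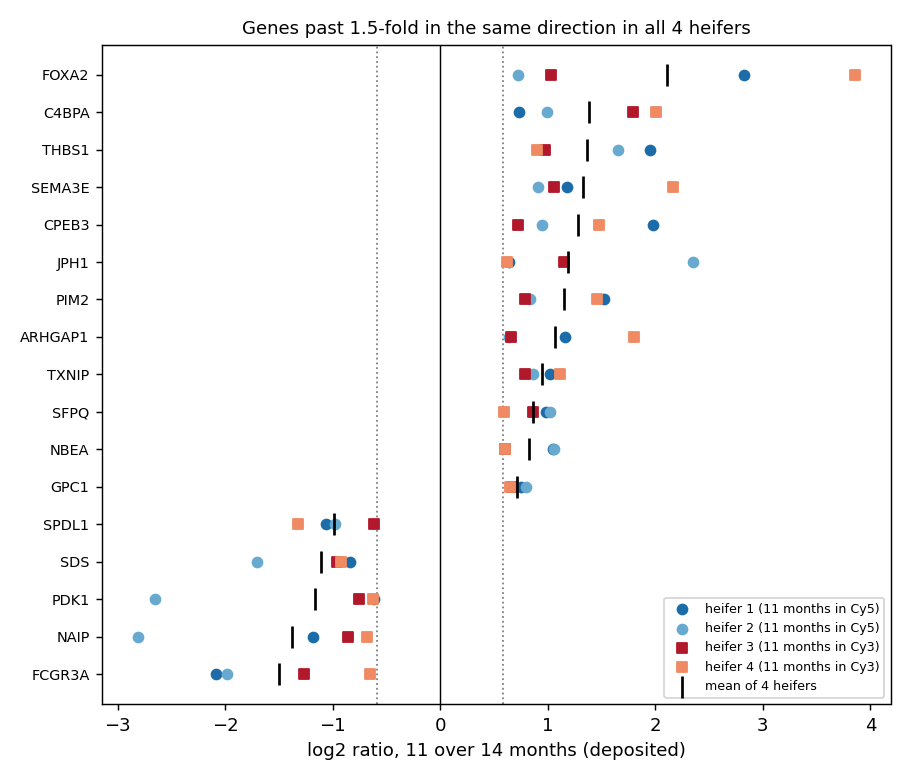
Log2 ratio of 11 over 14 months (horizontal axis) for the 17 genes past 1.5-fold in the same direction in every heifer. Points are heifers (circles with 11 months in Cy5, squares in Cy3), the black bar is their mean, and dotted lines mark 1.5-fold; FOXA2 spreads widest, from 0.72 to 3.85, and GPC1 least.

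The genes with the smallest p in limma's fit, whose adjusted p was 0.679 throughout, shared SFPQ, CPEB3 and SPDL1 with these 17. Among the higher ones, ZNF24, a zinc finger repressor, had ratios of 1.81, 1.48, 0.17 and 0.91. VPS18, a tethering protein of lysosomal fusion, had 1.40, 0.98, 0.21 and 0.46. TOLLIP, an adaptor that dampens Toll-like receptor signals, had 1.61, 1.19, 0.11 and 0.08. In these genes heifers 1 and 2 stood above heifers 3 and 4, which is also the split of the dyes, so that dye and heifer cannot be told apart within these 4 arrays. The dye term of the fit passed for 12 probes (0.0529%). The split by heifer also held for SPSB3, PHC2 and CREB3L2, and for SCAND1 with 1.39, 1.30, 0.29 and 0.60, whose other probes gave fitted changes of 0.12 to 0.35. CRYL1, an enzyme of glucuronate metabolism, did not follow the split, with 0.76, 0.48, 0.54 and 0.79. TMEM160 had 1.09, 0.73, 0.39 and 0.71, with another probe at a fitted change of 0.30. NUP58, a nucleoporin, had 0.54, 0.18, 1.36 and 0.68, with a second probe at -0.53, on the other side of 0.

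On the lower side, 4 of the 12 genes with the smallest p were SPDL1, KIF4A, CKAP2 and KIF20A, proteins of the spindle and kinetochore. AKAP6, a scaffold for protein kinase A, was lower by similar amounts everywhere, at -0.69, -0.56, -0.66 and -0.81. PEX26, needed for import into peroxisomes, had -0.56, -0.82, -0.62 and -0.75, with another probe at a fitted change of -0.16, and ASF1B, a histone chaperone of dividing cells, had -0.53, -0.93, -0.70 and -0.84. All 3 were lower in every heifer with narrow spread. PVRIG, an inhibitory receptor of lymphocytes, had -1.22, -2.01, -0.30 and -0.27 and was above background in 2 of 4 heifers at 11 months. MTG1, a GTPase of mitochondrial ribosome assembly, had -0.94, -1.78, -0.38 and -0.53, with a mean of -0.91. CASP8AP2, a protein that binds caspase 8, had -1.21, -0.83, -0.11 and -0.38, with a mean of -0.63. PVRIG, MTG1 and CASP8AP2 were lower in heifers 1 and 2 than in heifers 3 and 4, which is also the split of the dyes. UQCRB, a subunit of respiratory complex III, and LMOD2, an actin nucleator of muscle, made up the rest, with means of -0.65 and -0.65.

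Genes of mitosis lay largely on the lower side at 11 months. Of 46 measured genes for mitosis, spindle and checkpoint, 44 had a fitted change below 0 (50.3% of all genes did, and 49.7% were above it) and 21 were lower in all 4 heifers, 45.7% against 6.38% of all genes. At an unadjusted p under 0.05 there were 20 (43.5% against 7.25%), and 0 passed the adjusted test. The median was -0.46, against 0.00 over all genes, and the medians by heifer were -0.20, -0.27, -0.58 and -0.84, so that heifers 3 and 4 were lowest. These are also the heifers with 11 months in Cy3, so that dye and heifer cannot be told apart within the 4 arrays or over all 8. SPDL1 and CKAP2 entered the list with their values known from earlier results, and without them 19 of 44 were lower in all 4 heifers and the median was -0.45.

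CCNB1, a cyclin that activates CDK1, had ratios of -0.37, -0.29, -1.20 and -2.52, with a mean of -1.09 ± 1.04 (SD, n = 4). CCNB2, its close relative, had -0.43, -0.94, -0.63 and -1.27, and AURKA, the kinase of the spindle poles, had -0.40, -0.60, -0.79 and -1.97. CCNB1 and AURKA were lower everywhere but by far the most in heifer 4, and CCNB2 was more even. CDK1 itself had -0.79, -0.06, -0.32 and -0.75, lowest in heifers 1 and 4. PLK1, a kinase that helps to switch CDK1 on, had -0.53, -0.70, 0.18 and 0.27, and its heifers lay on both sides of 0.

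MAD2L1, which holds the anaphase complex back, had -1.36, -0.34, -0.36 and -1.58, and BUB1B, a kinase-like partner of it, had -0.94, -0.39, -0.43 and -1.39. Both were lowest in heifers 1 and 4. BIRC5, survivin, had -0.10, -1.76, -0.74 and -0.74, lowest in heifer 2. Of the spindle motors, KIF20A had -0.29, -0.83, -0.96 and -1.11 and KIF4A had -0.32, -0.52, -1.0 and -0.83, lower in all heifers with narrow spread, whereas KIF2C had -0.03, 0.01, -1.52 and -1.73 and was near 0 in heifers 1 and 2. CKAP2, a microtubule protein of the spindle, had -0.89, -0.51, -0.57 and -0.95. The list was not uniform. MKI67, the source of the Ki-67 antigen, had -0.17, -0.19, 0.35 and -0.25 and was above background in only 1 of 4 heifers at 11 months. NDC80 and SPC24, subunits of one kinetochore complex, had 0.13, 0.80, -1.06 and -0.30 and 0.34, 0.53, -1.36 and -1.37, above 0 in heifers 1 and 2 and below it in heifers 3 and 4. Their split, like that of KIF2C, is also the split of the dyes. RACGAP1 and BUB3 were the 2 members with a fitted change above 0, at 0.13 ± 0.18 (SE) and 0.13 ± 0.23 (SE). BUB3, a checkpoint protein, had 0.83, 0.12, 0.39 and -0.83, below 0 in heifer 4 alone.

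DNA replication genes differed less. Of 34 measured genes of replication and the G1 to S step, 24 were below 0, against 50.3% of all genes, and the median was -0.19. In all 4 heifers 4 were lower (11.8% against 6.38% of all genes), and 1 had an unadjusted p under 0.05 in limma (2.94% against 7.25%). That 1 gene was RFC4, a subunit of the clamp loader, with -0.66, -0.18, -0.87 and -1.15. Inhibitors of the cycle and D cyclins showed no common side, with 5 of 14 above 0, against 49.7% of all genes. GADD45A, a stress-induced inhibitor, had 0.29, 2.00, 0.66 and 2.55 and was higher in every heifer, with another probe at a fitted change of 0.22, whereas CDKN1A, the p21 inhibitor, had -0.29, -1.99, -0.83 and 0.29, and the heifers lay on both sides of 0.

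**Figure D3:**
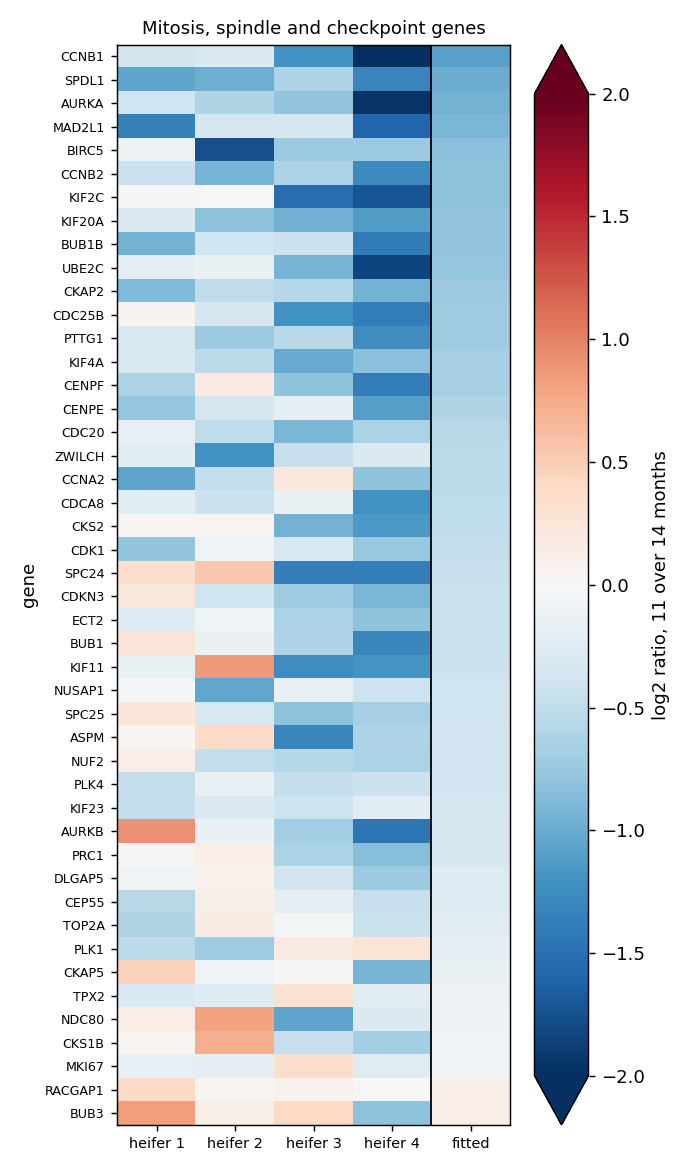
Log2 ratio of 11 over 14 months for the 46 measured genes of mitosis, spindle and checkpoint (vertical axis, sorted by the fitted change) in each heifer and in limma's fit (horizontal axis). Blue is lower and red higher at 11 months, with the colour scale ending at 2 in either direction; 44 of 46 fitted values are below 0 and the deepest blue lies in heifer 4.

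Levels of cell type markers are set beside the mitotic genes here, and their part in the ratios of those genes was not tested in any heifer. The summed normalized intensity of 5 granulosa markers was 36087 at 11 months against 71851 at 14 months in heifer 4, and 67336 against 65482 in heifer 3. INHA was by far the brightest of the 5, so these sums follow mainly that gene. Its median scanner intensity was 59345.5 at 11 and 61665.5 at 14 months, against 4642 and 7658.5 for CYP19A1, the next brightest. In heifer 3 summed leukocyte markers were 54950 against 57381, cilia markers 3878.5 against 3892.4, theca markers 2975.6 against 2067.9 and red blood cell markers 1936.5 against 1542.4. Epithelial markers there were 47445 against 40120, and oocyte markers 3656.1 against 4422.1. In heifer 2 leukocyte markers were 45492 at 11 against 110990 at 14 months, and granulosa markers 53763 against 67627.

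In heifers 2 and 3, a pair chosen after the values were seen, 27 of the 46 mitotic genes were lower in both, against 21.8% of all genes. The pair was picked from these same values, so the count is a description and cannot test the part of the cell type markers.

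**Figure D4:**
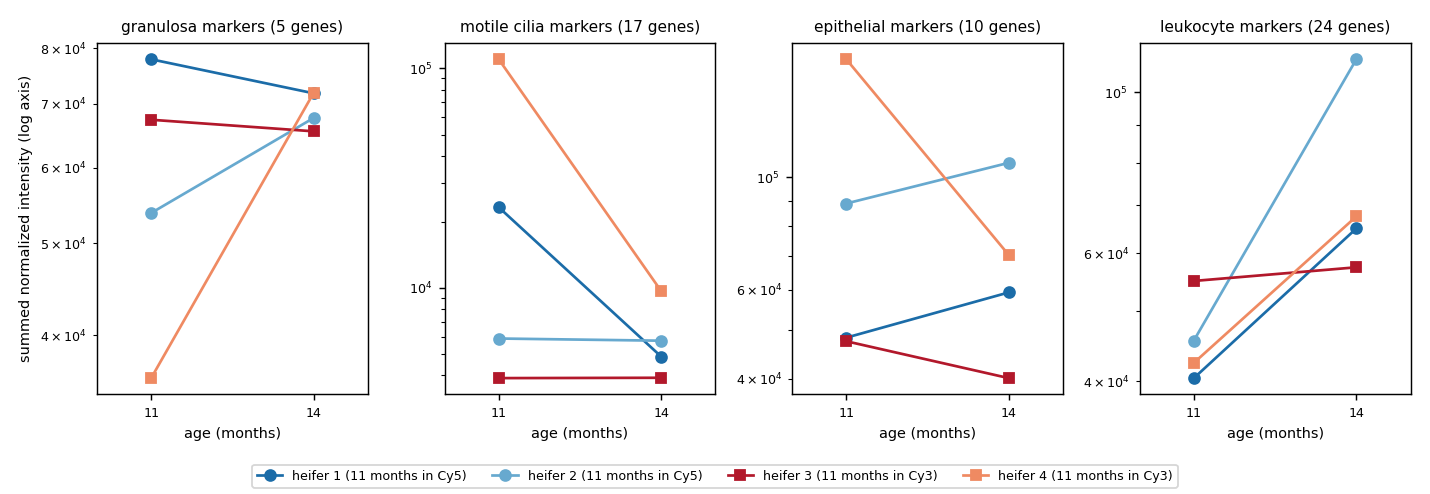
Summed normalized intensity (vertical axes, log scale) of the markers of 4 cell classes at 11 and 14 months (horizontal axes), with a line for each heifer. Cilia markers in heifer 4 stand at 110110 at 11 months against 9666.2 at 14 months, and granulosa markers at 36087 against 71851, while the lines of heifer 3 are nearly level for granulosa and cilia markers.

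Markers of motile cilia were higher at 11 months mainly in heifers 1 and 4, and those of epithelia mainly in heifer 4. Of 31 listed cilia markers 17 were kept, some of which were above background in too few heifers at 14 months to be kept through that age. SPAG6, a protein of the ciliary central pair, was above background in 3 of 4 heifers at 11 months and 0 of 4 at 14 months, and TEKT1, a tektin of ciliary microtubules, in 3 and 1. Members kept through a younger age alone tend to lie above 0 by that choice, so the figures for the 17 are a description only. Their median fitted change was 1.05, with medians of 1.04, 0.16, 0.07 and 3.13 in heifers 1 to 4. None passed the test, and without heifer 4 the median was 0.18. DNAH9, a dynein heavy chain of the ciliary arm, had ratios of 4.24, -0.24, 0.33 and 5.98, and OVGP1, the oviduct glycoprotein, had 5.47, -0.47, 0.22 and 3.10. Both were far higher at 11 months in heifers 1 and 4 and near 0 in heifers 2 and 3. At 14 months each was above background in only 2 of 4 heifers. OVGP1 is a secreted protein rather than a part of the cilium, yet it counted among the 17 and in their sums. Its median scanner intensity at 11 months was 4712.5, against 2123 for DNAH9. DNAH11, another dynein heavy chain, was higher in each heifer, at 1.04, 0.43, 0.35 and 1.39. ROPN1, a sperm and cilium protein, had 2.48, 1.12, -0.27 and 6.04 and was above background in 3 of 4 heifers at 11 months and in 0 of 4 at 14 months, so that its ratios rest on dim 14-month signals.

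Epithelial markers had a median of 0.79, and by heifer 0.19, 0.12, 0.32 and 2.29, and without heifer 4 it was 0.17. Summed, they were 48229 at 11 against 59254 at 14 months in heifer 1. KRT8, a keratin of simple epithelia, had 0.17, 0.70, 0.92 and 1.61, and CLDN1, a tight junction protein, had 0.20, 0.05, 0.51 and 2.44, both highest in heifer 4. Of the 10 genes with the largest SD over the heifers, most followed the pattern of heifers 1 and 4. RARRES1 had 6.23, -0.04, 1.87 and 5.32, ROPN1L, a protein of the ciliary spoke, 3.57, -0.30, 0.10 and 6.11, and EFEMP1, a fibulin, 1.20, -1.05, 0.65 and 5.90. CLDN11, a tight junction protein, instead was high in heifers 3 and 4, at -0.31, -0.65, 3.22 and 5.99, which is also the split of the dyes. Summed cilia markers, with OVGP1 among them, were 23296 at 11 against 4860.5 at 14 months in heifer 1 and 110110 against 9666.2 in heifer 4.

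Genes that define granulosa cells were lower mainly in heifer 4. Of 23 measured identity and FSH response genes 20 had a fitted change below 0, against 50.3% of all genes, with a median of -0.29. Only 1 was lower in all 4 heifers (4.35% against 6.38% of all genes), and the heifer medians were 0.15, -0.29, -0.05 and -0.98. Without heifer 4 the median was -0.033. CYP19A1 had 0.15, -0.51, 0.25 and -3.09 and FSHR had -0.44, -0.05, 0.20 and -1.97, both far lowest in heifer 4 and on both sides of 0 elsewhere. Without heifer 4 the fitted change of CYP19A1 was 0.082 and that of FSHR -0.0061. INHBB and INHBA, the beta chains of inhibin and activin, had 0.13, -0.87, -0.46 and -2.22 and -0.09, -0.77, 0.14 and -1.15. TCF21, a transcription factor, had 0.11, -0.55, -0.42 and -2.25. In heifer 4, where these genes were lowest, summed epithelial markers were 171130 at 11 against 70237 at 14 months, and their part in the values was not tested. The receptor LHCGR had no probe kept.

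Steroid and ovulatory genes had no common side. STAR, which carries cholesterol into mitochondria and limits the rate of steroid synthesis, had -0.58, 2.77, 2.46 and 0.42 and a second probe at 1.33, high in heifers 2 and 3 and below 0 in heifer 1. TSPO, a cholesterol-binding protein of the outer mitochondrial membrane, had -0.52, -2.41, -0.52 and 0.23, lowest in heifer 2. ADAMTS1, a protease that the LH surge induces, had -0.05, 0.69, 1.66 and 2.10, and VNN1, a pantetheinase, had -0.79, 2.38, 1.55 and 0.72. VEGFA, the main growth factor for vessels, had 1.80, 0.21, -0.56 and -0.98, a fitted change of 0.12 ± 0.34 (SE), and heifers on both sides of 0. Without heifer 1 its fitted change was -0.38. TIMP1, an inhibitor of matrix proteases, followed STAR in part, with -0.41, 2.55, 2.29 and 1.99 and a second probe at 1.34.

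Several rapidly induced genes were higher in 3 of the heifers. Of 26 measured immediate early genes 21 had a fitted change above 0, against 49.7% of all genes, and the median was 0.35. Higher in all 4 heifers were 2 (7.69% against 7.25% of all genes). The heifer medians were 0.24, 0.03, -0.08 and 1.02, and without heifer 4 the median was 0.013. JUN, a subunit of AP-1, had 1.22, 2.43, -0.60 and 1.18, and EGR1, a zinc finger factor, had 2.01, 1.10, -0.49 and 0.89. Both were higher in heifers 1, 2 and 4 and lower in heifer 3. IER3 was higher in every heifer, at 0.34, 1.11, 0.16 and 1.09. Of 13 heat shock genes 11 were above 0, against 49.7% of all genes, with a median of 0.26 and heifer medians of 0.40, 0.36, 0.11 and 0.30. BAG3, a co-chaperone, had 0.86, 0.49, 0.06 and 1.39, and HSPA1A, the inducible HSP70, had 0.47, 0.88, -0.01 and 1.99, both highest in heifer 4. Of the unfolded protein response, CREB3L2, a membrane-bound factor that entered its list with its values known, had 1.88, 2.25, 0.20 and 0.74, and PPP1R15A, which restarts translation after stress, had 0.34, 0.17, 0.48 and 0.90, higher in each heifer.

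Growth factor pathways differed by member. ID1, a direct target of BMP signalling, had 0.55, 0.98, 0.44 and 1.10, and SMAD1, which carries that signal, had 0.33, 1.17, 0.27 and 0.44, both higher in every heifer. Of 19 receptors, SMADs and targets of the TGF-beta family 16 were above 0, with a median of 0.19, whereas 6 of 11 ligands and inhibitors were. Of all genes 49.7% were. IGF2R, which clears IGF2 from the surface, had 1.85, 1.87, 0.45 and 0.39, higher everywhere but most in heifers 1 and 2. This is also the split of the dyes. IGF2, the ligand, had -0.17, 1.17, 2.96 and 1.05, and heifer 3 was the highest. AKT2, a kinase below the insulin receptor, had 1.98, 1.65, -0.13 and -1.09, which splits as the dyes do.

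Leukocyte markers were lower at 11 months mainly in heifers 1 and 2. These are also the heifers with 11 months in Cy5, so that dye and heifer cannot be told apart within the 4 arrays or over all 8. Of 24 measured, 22 had a fitted change below 0, against 50.3% of all genes, and 5 were lower in all 4 heifers (20.8% against 6.38%). The median was -0.34, and the heifer medians were -0.49, -1.06, 0.00 and -0.02. Without heifer 2 the median was -0.083. CD3E, a chain of the T cell receptor complex, had -0.73, -1.64, -0.34 and -0.78, and PTPRC, the pan-leukocyte phosphatase CD45, had -0.40, -2.33, -0.35 and -0.01. Both were lower in every heifer and lowest in heifer 2. LYZ, lysozyme, had -1.66, -3.13, -0.89 and 0.31. The summed markers ranged from 40378 to 54950 at 11 months and from 57381 to 110990 at 14 months. SRGN, a proteoglycan of white blood cell granules, was a bright member, with a median scanner intensity of 26138 at 11 and 47452 at 14 months. In heifer 4 the sums were 42380 at 11 against 67431 at 14 months, although the median ratio of the list was -0.02 there.

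Metabolic genes showed single differences. PFKL, a phosphofructokinase of glycolysis, had 1.55, 0.32, 0.43 and 0.43, and ALDOA, an aldolase, had -0.33, -0.19, -0.38 and -1.78, each set by 1 heifer. ALDOC, another aldolase, had -0.01, -1.07, -0.32 and -0.36. In the citric acid cycle OGDH had 1.51, 0.80, 0.06 and 0.28 and IDH3A -0.98, -1.74, 0.37 and -1.19, on opposite sides. Genes of mitochondrial respiration had a median of -0.10 and ribosomal proteins 0.029, near the 0.00 of all genes. Glycolysis genes had a median of -0.21, and genes of insulin and IGF signalling 0.33. The median was -0.33 over all cell cycle genes, -0.31 over the FSH response genes, hormones and receptors of granulosa cells and -0.14 over their transcription factors. None of the members passed the test.

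**Figure D5:**
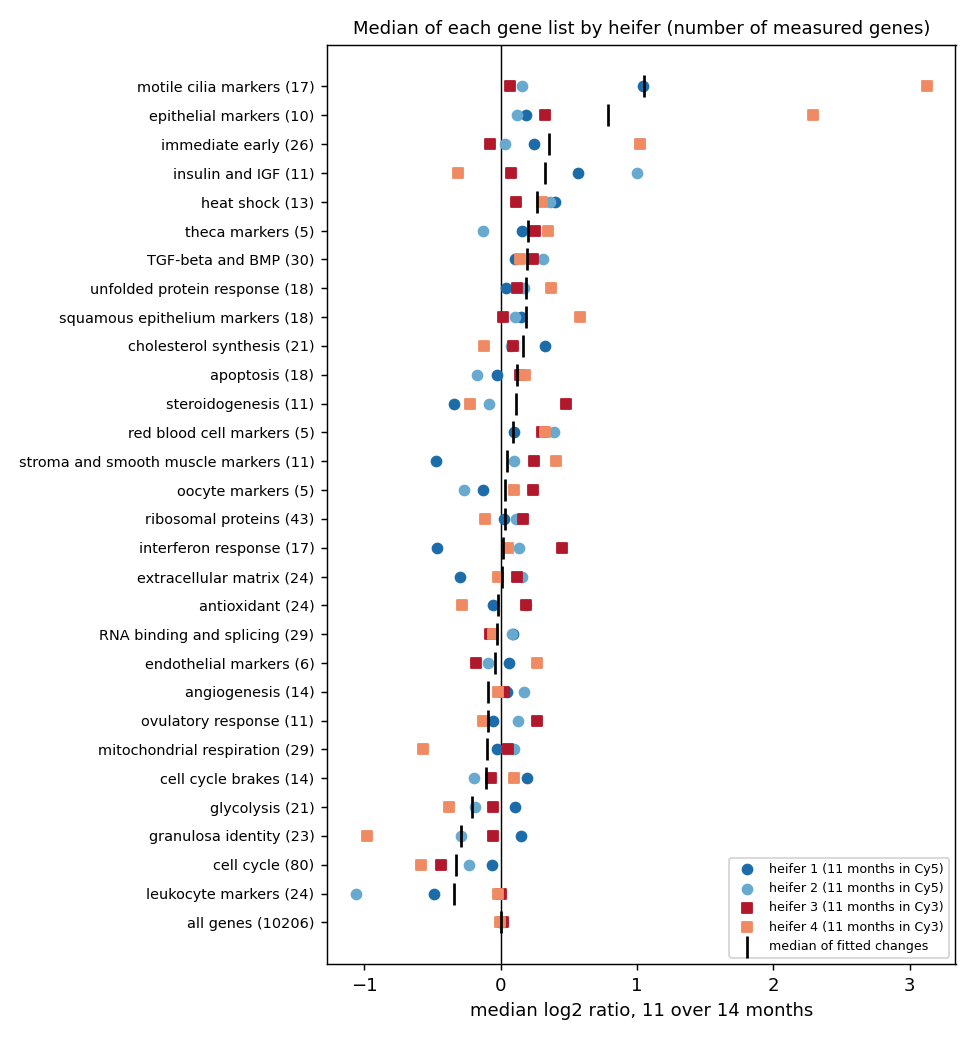
Median log2 ratio of 11 over 14 months (horizontal axis) of each gene list by heifer, with the number of measured genes in brackets; circles have 11 months in Cy5, squares in Cy3, and the black bar is the median of the fitted changes. Cell cycle genes lie below 0 in every heifer (-0.07, -0.23, -0.44 and -0.58), and cilia markers reach 3.13 in heifer 4.

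The genes with the largest ratios in single heifers were listed by a rule added after the values were seen. In heifers 1 and 2 SLC30A7, a zinc transporter of the Golgi, had 3.06 and 2.56 and DDX6, a helicase of P bodies, 2.85 and 2.79, against -0.08 and 0.88 and -0.40 and 0.21 in heifers 3 and 4. The split of both genes is also that of the dyes. The other probes of DDX6 gave fitted changes of 0.16 to 0.37. APOD, a lipocalin, had 0.49, 4.39, 1.95 and 0.61 over the 4 heifers, and GNLY, a granule protein of killer cells, had -0.44, -3.49, 0.03 and -0.37. Both were farthest from 0 in heifer 2. APOD was above background in 3 of 4 heifers at 11 months and 2 of 4 at 14 months, so that part of its ratios rests on dim signals. Lower than GNLY in heifer 2 were ITPRID2 (-1.22, -3.83, 0.39 and 1.13 over the 4 heifers), FADS1 (-0.53, -3.51, 0.39 and 0.79) and PTPRU (-1.01, -3.51, 0.42 and 1.67). The interferon-induced IFI27 had -0.20, 2.46, 2.32 and -1.09, with another probe at a fitted change of 0.17, and ISG15, also interferon-induced, had -0.47, 2.60, 0.70 and -2.53, with another at 0.097. The gap junction gene GJA1 had 0.22, 0.44, 0.82 and -2.75, with another probe at 0.018. TNFAIP6, a hyaluronan-binding protein of the ovulating follicle, had 0.33, -1.0, 2.60 and -1.96.

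Set beside the 8-month arrays of the same heifers, which share the 14-month animals, 5 of the genes above had these fitted log2 ratios of 8 over 14 and of 11 over 14 months, positive where the younger age was higher. SFPQ had 0.82 at 8 months and 0.87 at 11 months, and CPEB3 2.63 and 1.28. SPDL1 had -0.81 and -0.99, and CKAP2 -1.13 and -0.73. FOXA2 had 3.85 and 2.11. The difference of both ages was tested in the same fit, and 0 probes passed in either direction in limma. Its lowest and highest values for these 5 genes were -0.40 for CKAP2 and 1.75 for FOXA2, as 8 minus 11 months. All 5 had an adjusted p under 0.05 for 8 against 14 months in limma's fit, and they do not stand for the other genes named. PEX26, for example, had 0.13 at 8 months and -0.69 at 11 months. Both ratios are set against 14 months in the same heifers, so they are not independent.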

How the data were processed

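The authors deposited log2 ratios of Cy5 over Cy3 for each array, which followed the median intensities after subtraction of local background and loess (correlation over probes 0.999 to 1.00). The sources used here do not give how they normalized. Scanner tables, also deposited, hold spot intensity in both channels and, per the file headers, no normalization. The deposited ratios were turned to younger over older and are the values reported. A probe was above background where its median intensity exceeded the mean of 153 negative control spots by 2 SD, and was kept where 3 or 4 of the 4 heifers met this at 1 age or another. Symbols came from the platform annotation, and 21549 probes had a match in RefSeq's bovine genes (ARS-UCD2.0), 1524 under a newer symbol. Of 43794 probes, 21790 had 1 symbol, 0 several and 22004 none.

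limma 3.58.1 in R 4.3.3 was fitted to all 8 arrays (terms for 8 and 11 against 14 months and for dye, heifer as a random block; within-heifer correlation 0.170, residual degrees of freedom 5, prior 3.36) with Benjamini-Hochberg adjustment over 22692 probes. Per the labels both comparisons used the same 4 animals, and deviations of the arrays of 1 heifer correlated at 0.38, 0.28, 0.44 and -0.13. The fit was also run on simulated data, and the outcome is not reported here. Levels for marker sums came from normexp (offset 50), loess and scaling between arrays.

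The comparison, its gene lists and the naming of genes were chosen with earlier results of these data known. Named are the 12 higher and 12 lower genes with the smallest p (1.5-fold, 1 direction in 4 heifers), those past 1.5-fold in all 4, the leading members of each list, the 10 with the largest SD, and CYP19A1, FSHR, LHCGR, STAR and VEGFA. PTPRC and the genes of single heifers were chosen after their values were seen.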

Additional observations from a re-analysis of the deposited data

Results flagged for a closer look

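In 10 results 1 heifer stood apart from the other 3 by more than Dixon's 95% critical value, among 127 genes named by rule and 31 lists; chance does this in about 1 in 20 groups. In heifer 2 the log2 ratio was -2.65 for PDK1 (the others -0.76 to -0.61), -1.71 for SDS (-0.96 to -0.84) and -2.43 for the death ligand FASLG (-0.46 to -0.21). In heifer 4 it was -1.78 for ALDOA (-0.38 to -0.19), 3.98 for the VEGF receptor KDR (0.25 to 0.67), 3.48 for the desmosomal DSP (0.03 to 0.41) and -6.28 for OLFM4 (-0.57 to 0.20), a gene above background in 1 of 4 heifers at 11 months and 2 of 4 at 14 months. KDR was above background at 14 months in 2 of 4 heifers, and DSP in 3 of 4 at 11 months and 2 of 4 at 14 months. The median of the epithelial markers in heifer 4 was 2.29 (0.12 to 0.32). In heifer 1 PFKL stood at 1.55 (0.32 to 0.43), and in heifer 3 the ribosomal protein gene RPS12 at -0.11 (0.57 to 0.64).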

How the results depend on the processing

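The count of probes with an adjusted p under 0.05 was 0 in limma under each of 15 other settings, with 888 to 3181 probes under 0.05 before adjustment. The adjusted p reached its minimum of 0.0696 with a dye term for each comparison. With no replicate block, which ignores the pairing by heifer, 0 probes passed, 1711 had an unadjusted p under 0.05 and the lowest adjusted p was 0.653. The 17 genes past 1.5-fold became 7 from scanner means. From scanner medians they became 21 with normexp and loess, 16 of them among the 17. With normexp and median normalization they became 24, of which only 12 were among the 17. The count was 42 to 133 with 1 heifer left out, 321 with heifers 2 and 3 alone at 11 months, and 0 at 2-fold. Fewer heifers or a higher threshold give such counts by construction. VEGFA had -0.38 without heifer 1 (-0.38 to 0.37 over the heifers left out) and -0.17 with heifers 2 and 3 alone, CYP19A1 had 0.082 without heifer 4 (-1.34 to 0.082), and FSHR had 0.074 with heifers 2 and 3 alone; the cause was not tested. The other 39 of 42 named genes tried kept their sign in every setting, and 0 passed. The median of the mitotic genes lay between -0.59 and -0.37, while 16 of 31 lists had a median of the opposite sign in at least 1 setting. Dim probes limit what can be read, since 43.3% to 57.3% of probes were above background.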
